A study of Danio rerio with 11 samples.

Results

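Neutrophils and macrophages are the phagocytes of innate immunity and patrol the wall of the gastrointestinal tract (GIT), where they meet bacteria and clear dying cells. Neutrophils carry granules filled with peroxidase, proteases and lysozyme, and are released from the marrow (in fish, the kidney) under the control of granulocyte colony-stimulating factor. Macrophages engulf cells and microbes and release cytokines such as interleukin 1 beta, which recruits further leukocytes. The genes described here are 10 genes named for these cells, of 32520 genes listed in any of the 3 tables: the granule and secreted genes mpx, npsn, lyz and lect2l, the matrix metalloproteinases mmp9 and mmp13a, the receptors csf3r and cxcr2, the macrophage gene mpeg1.1 and the cytokine il1b. They were chosen by symbol. Of the 10, 9 were found in the symbol columns of the tables, and mmp13a was found through the reference gene names.

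The tables come from GIT RNA of adult zebrafish in 4 groups. Fish of the torpor group (18.5-mel, 2 samples) lived in water of 18.5 °C that held 24 µM melatonin. The radiation group (28.5-rad, 3 samples) was kept at 28.5 °C and irradiated. A group labelled torpor with radiation (18.5-mel-rad, 4 samples) received the cold, the melatonin and the radiation. Fish of the control group (28.5-Ctrl, 2 samples) were kept at 28.5 °C with neither. The labels of the irradiated samples give a dose of 32.64 cGy, whereas the treatment protocol gives a total of 32.68 cGy.

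Each table belongs to 1 treated group set against 28.5-Ctrl, and is named here torpor, radiation or combined table, the last for 18.5-mel-rad. The only level it gives for a gene is the authors' mean of normalized counts, which DESeq2 takes over every library of a fit, treated and control alike, and the columns do not name those libraries. This mean holds no separate value for a group or a sample. It has no standard deviation, and no difference between treated and control fish was computed from it. In RNA of a whole tissue, the number of leukocytes and the RNA per leukocyte cannot be told apart. The tables were normalized separately, so the position of a gene is also given as the percent of genes with a mean above 0 in the same table that had a lower mean (percentile). Genes with a mean above 0 numbered 26922 in the torpor table, 18166 in the radiation table and 18133 in the combined table. Percentiles of the torpor table are therefore over a wider set of genes and cannot be compared directly with those of the others. Counts were not divided by transcript length, so a higher mean of one gene than of another does not show more transcripts.

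Among the granule genes, mpx had by far the highest position. It encodes myeloid-specific peroxidase, the enzyme that turns hydrogen peroxide into bactericidal oxidants and the usual marker of zebrafish neutrophils. The authors' mean of mpx was 1073.5 normalized counts in the torpor table, 1706 in the radiation table and 1820 in the combined table. Its percentiles were 98.0, 97.8 and 97.8 in the same order. With these values mpx stood near the top of every table, and it was the only one of the 10 above 60 normalized counts in any table.

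The next granule gene, npsn, encodes nephrosin, an astacin-family metalloprotease of fish leukocytes. Its mean was 37.5 normalized counts in the torpor table (percentile 66.8), 52.7 in the radiation table (58.7) and 59.6 in the combined table (60.1). For lect2l, a relative of the leukocyte chemotactic factor LECT2, the means were 18.2, 26.0 and 29.5 normalized counts in the torpor, radiation and combined tables. Its percentiles of 55.7, 46.4 and 47.6 lay near the middle of all genes. Lysozyme, which cuts the cell wall of bacteria, is encoded by lyz and is widely used as a label of zebrafish myeloid cells. It was listed at 0 in all 3 tables. Counting lyz, a mean of 0 was listed for 5598 genes of the torpor table, 905 of the radiation table and 938 of the combined table, and whether reads of lyz were lost in counting was not tested.

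Of the metalloproteinases, mmp9 encodes a gelatinase that is stored in neutrophil granules and made by other cells too. Its mean was 40.5 normalized counts in the torpor table, 57.5 in the radiation table and 58.0 in the combined table, at percentiles 68.1, 60.3 and 59.7. The span of mmp9 overlaps 4 other genes in RefSeq's annotation of GRCz12tu, an assembly other than the one the reads were aligned to. In that annotation the span of lyz overlaps 0 other genes. The collagenase gene mmp13a was listed only in the torpor table, with a mean of 4.34 normalized counts (percentile 36.4).

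The receptor genes ranked below mpx, npsn and mmp9. The mean of csf3r, the receptor for granulocyte colony-stimulating factor, was 16.5 normalized counts in the torpor table, 22.7 in the radiation table and 22.2 in the combined table. Its percentiles were 54.1, 44.4 and 43.4, and its span overlaps 3 other genes in GRCz12tu. For cxcr2, a receptor that guides neutrophils along gradients of CXC chemokines, the mean was 6.40 normalized counts in the torpor table, against 1.35 in the radiation table and 1.62 in the combined table. It was the only one of the 8 genes with a mean above 0 in all 3 tables whose mean was highest in the torpor table. Its percentile there was 41.2 over all genes and 29.8 over the 19071 genes listed in every table, whereas in the other tables it was 14.4 and 15.3. Which libraries gave these reads cannot be read from a pooled mean.

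The macrophage gene mpeg1.1, which encodes the pore-forming protein perforin-2, ranked in the lower part of the genes with a mean above 0. Its means were 3.54, 5.09 and 5.72 normalized counts in the torpor, radiation and combined tables. The percentiles were 34 (23.1 over the genes listed in every table), 25.9 and 26.5. Its paralog mpeg1.2 had means of 61.9, 94.6 and 99.6 normalized counts in the same tables. Reads may be shared between such paralogs, and how they were divided in counting is not given in the sources used here. The cytokine gene il1b had a mean of 12.3 normalized counts in the torpor table, 22.0 in the radiation table and 23.7 in the combined table. Its percentiles were 49.95 (39.0 over the genes listed in every table), 43.8 and 44.3. The span of il1b overlaps that of myo18b in GRCz12tu.

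**Figure D1:**
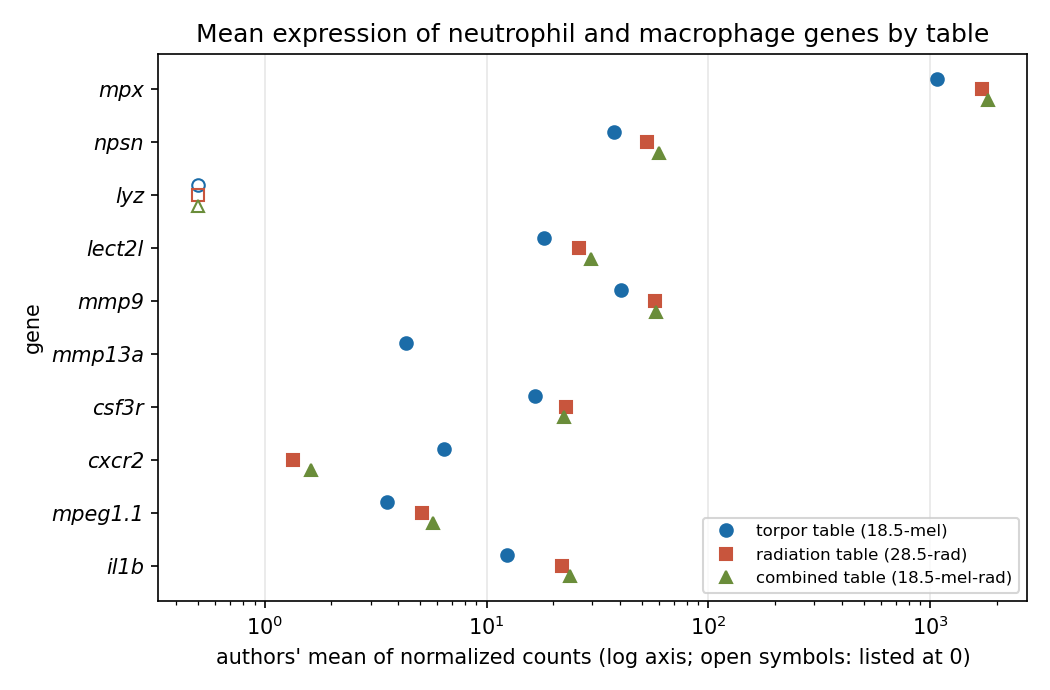
Authors' mean of normalized counts (log axis) of each of the 10 genes, with 1 symbol per table and no error, since each value is a single pooled mean. Open symbols at the left edge stand for lyz, listed at 0, and mpx lies between 1073.5 and 1820 while every other gene lies under 60.

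Over the 10 genes, 6 had a mean of at least 10 normalized counts in each of the 3 tables. These were mpx, npsn, lect2l, mmp9, csf3r and il1b. Of all genes with a mean above 0, 52.9% reached that level in the torpor table, 67% in the radiation table and 67.5% in the combined table. On that same base were 9 of the 10 genes in the torpor table and 8 in each of the others. With so few genes, the count of 6 does not set them apart from these shares. Above the median gene of the torpor table were 5 of the 10 genes (mpx, npsn, lect2l, mmp9 and csf3r), and 3 (mpx, npsn and mmp9) lay above that of the radiation and of the combined table. The torpor table lists more genes than the others, 32520 against 19071, and among the genes listed in every table the number for the torpor table was also 3. Over those shared genes the torpor percentiles were 97.5 for mpx, 59.7 for mmp9, 58.1 for npsn, 45.2 for lect2l and 43.4 for csf3r. They were 39.0 for il1b, 29.8 for cxcr2 and 23.1 for mpeg1.1.

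Wider lists of marker genes, which include the 10 genes, were ranked in the same way. The neutrophil list holds mpx, npsn, lyz, lect2l, csf3r, cxcr2, mmp9 and mmp13a themselves, and the macrophage list holds mpeg1.1. The neutrophil list of 17 genes spans granule proteins, receptors, oxidase subunits, the integrin itgb2 and the transcription factors cebpa, cebp1 and spi1b. Not all of its genes are particular to neutrophils. In the torpor table cebpa, itgb2 and spi1b were at percentiles 92.6, 82.5 and 80.4, against 98.0 for mpx, 54.1 for csf3r and 41.2 for cxcr2. Of the 17 genes, 16 had a mean above 0 in the torpor table and 14 in each of the others. The median percentile of those genes was 70.5 in the torpor table, 63.4 in the radiation table and 63.3 in the combined table. List medians of the torpor table are over its wider set of genes and at times over more list genes, here with cxcr1 and mmp13a. Medians over the genes listed in every table were not computed, so a higher torpor median does not show a higher level. In the neutrophil list, ncf1, a cytosolic subunit of the phagocyte NADPH oxidase, had means of 299, 464 and 501 normalized counts in the torpor, radiation and combined tables. At the low end, cebp1, a transcription factor of granulocytes, had means of 0.0932, 0.150 and 0.157 normalized counts.

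Of 16 macrophage genes, 14 had a mean above 0 in the torpor table and 13 in each of the others, with median percentiles of 74.2, 69.6 and 69.7. The highest was cd74a, the invariant chain of MHC class II, which B cells and other antigen-presenting cells express as well, with 1632, 2480 and 2730 normalized counts. The lowest was c1qa, a chain of complement C1q, with 0.969, 1.70 and 1.52 normalized counts. A list of 13 inflammatory cytokine and receptor genes, il1b among them, lay lower, at median percentiles of 39.9, 29.6 and 29.3. In this list the TNF receptor gene tnfrsf1a was highest, with 250.3 normalized counts in the torpor table, 406 in the radiation table and 437 in the combined table. The lowest was the anti-inflammatory cytokine il10 in the torpor table, with 1.04 normalized counts, and csf3a, a granulocyte colony-stimulating factor gene, in the other tables, with 1.104 and 0.989.

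Lists of enterocyte, exocrine pancreas, smooth muscle, and connective tissue and vessel genes ranked above the neutrophil and macrophage lists in all 3 tables. The median percentile of the enterocyte list was 99.4, 99.3 and 99.3 in the torpor, radiation and combined tables. Exocrine pancreas genes, led by the trypsin gene prss59.1, had medians of 99.9 in every table. Medians of the smooth muscle list were 98.6, 98.3 and 98.2, and those of connective tissue and vessel genes 79.7, 76.8 and 76.2. Markers of T and NK cells were at 55.5, 48.8 and 49.96, erythrocyte markers at 29.1, 23.0 and 23.6 and B cell markers at 26.2, 19.7 and 20.4. Single genes of these lists ranged widely. Among erythrocyte genes, hbaa1 was at 89.5, 88.9 and 89.5 and gata1a at 7.83, 4.85 and 5.40. The B cell list had 6 genes in the torpor table, with ighm at 86.2, and 4 in each of the others, without ighm. The goblet and secretory cell list, with 3 genes in the torpor table and 2 in each of the others, was at 69.6, 57.2 and 57.3. Its gene agr2 was at 96.8, 96.4 and 96.3 and muc5.1 at 45.4, 18.1 and 18.4. The medians over 2 genes therefore lie far from both genes.

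**Figure D2:**
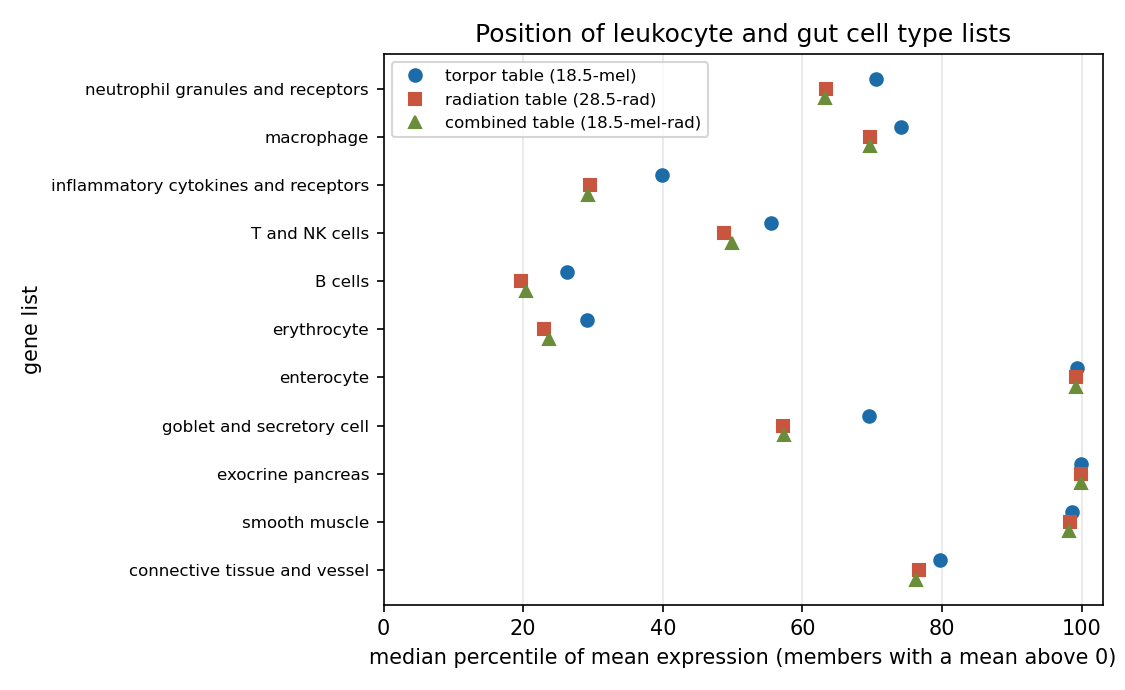
Median percentile of mean expression for 11 marker lists, over list genes with a mean above 0, with 1 symbol per table. The torpor table ranks a wider set of genes, so its symbols cannot be compared directly with the others. Neutrophil and macrophage lists lie between 63.3 and 74.2, below the enterocyte, exocrine pancreas and smooth muscle lists at 98.2 or more. They also lie below the connective tissue and vessel list, at 76.2 to 79.7.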

How the data were processed

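RNA of the zebrafish GIT was sequenced by the authors in 11 samples. The study's methods name different sequencing facilities and instruments, without saying which libraries each handled. Titles of both 18.5-mel samples, and of no others, are coded otherwise than those of the other groups. A batch that went with this coding could not be told apart from the treatment of that group. Per the labels and the study's methods, reads were checked with FastQC, trimmed with Cutadapt, aligned to GRCz11 with STAR and counted with HTSeq; versions and strand setting are not given in the sources used here. The labels state a minimum of about 25 M sequenced reads per library, and the counted reads of each library cannot be read from the means. The signal in each deposited table is the authors' mean of counts normalized by DESeq2 size factors, over the libraries of the fit. The tables also hold the authors' own log2 fold changes, standard errors, Wald statistics, p-values and adjusted p-values for each treated group against 28.5-Ctrl. These columns report the study's own comparisons and were not used.

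Here the means were read with pandas 2.3.3 under Python 3.11.15 and ranked within each table among genes with a mean above 0; the ranking was tested on simulated data. No test was run, and with no value per sample used, no replicate was left out and no depth per sample or interval was computed. The 10 genes and the 11 marker lists were chosen with earlier results of these data known. All 10 genes are named, and from each list the highest and lowest gene was eligible. Outside that rule, mpeg1.2 and ncf1 were chosen after their values were seen, and cebpa, itgb2 and spi1b were named as well. A planned order per kb of coding sequence was not made, since no coding lengths were used here.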

Additional observations from a re-analysis of the deposited data

How the results depend on the processing

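Ranking among genes with a mean of at least 10 normalized counts left 1 of the 10 genes (mpx) above the median in each of the 3 tables, in place of 5 genes in the torpor table and 3 genes in both the radiation and the combined table, because that ranking leaves out low genes. An alternative added after the data were seen, ranking among genes listed in all 3 tables, gave 3 genes in the torpor table. The counts of the radiation and combined tables could not change, because the 19071 shared genes are all the genes these tables list. The torpor table held no repeated gene identifier. In the radiation and combined tables, each with 19072 entries for 19071 genes, taking the lower entry of the repeated identifier changed no count. Little change was possible from so small a repeat. Counting lyz, listed at 0, in the neutrophil list gave median percentiles of 68.1 in the torpor table, 60.3 in the radiation table and 60.1 in the combined table, and the other 30 medians stayed the same. No paired analysis was possible because the result comes from no test and no column carries a replicate. The order per kb of coding sequence was not run. Counted reads per library are unknown from the means, so how precise means of a few normalized counts are, such as those of cxcr2, mpeg1.1 and mmp13a, cannot be given.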
